A study of Mus musculus with 6 samples.

Results

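The circadian clock was read from 10 genes, which were followed through maps of open chromatin in mouse blood: the activators Bmal1 and Clock, the repressors Per1, Per2, Per3, Cry1 and Cry2, the REV-ERB genes Nr1d1 and Nr1d2, and the output gene Dbp. ATAC-seq, which cuts accessible DNA with a transposase, had been run on white cells of peripheral blood after red cell lysis, with 3 control and 3 HADA libraries. All mice were male C57BL/6j animals, 8 weeks old when purchased, and their age at bleeding is not given in the sources used here. The HADA (high-altitude de-acclimatization) mice spent 28 days in a hypobaric chamber set to the oxygen of 6000 m and then went back to normoxia, and the control mice stayed in normoxia. The cells were an unsorted mixture, so a change in how many cells of a type were present and a change within each cell cannot be told apart. The study's mouse model gave up to several weeks of recovery in normoxia, but which day of it this blood comes from, the time of day of bleeding and the light cycle are not given in the sources used here, and the levels of clock genes depend on the hour. The labels do not say that the libraries came from separate animals, so the p-values measure the spread between these samples, which may be technical.

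A region belonged to a gene when the summit of a listed peak lay in the gene body or within 3 kb of a start of that gene in the GENCODE annotation of GRCm39. By this rule 27 of 62876 regions belonged to the 10 genes. Of these, 14 were shared, meaning that all 6 libraries listed a peak there, out of 23970 shared regions in the genome. Each of the 10 genes had a shared region, and 4 of the other 13 regions were listed in 1 library only.

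The mammalian clock is a feedback loop. BMAL1 pairs with CLOCK, binds E-boxes and switches on the Per and Cry genes, whose proteins return to the nucleus and silence that pair. A second loop runs through NR1D1 and NR1D2, also known as REV-ERB alpha and beta, which compete with ROR proteins at ROR elements and repress Bmal1. DBP, itself driven by BMAL1 and CLOCK, carries the rhythm outward through D-boxes. In blood and bone marrow this clock times the release and homing of leukocytes.

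Each region was measured by its summit height, the number of overlapping fragments at the tallest base of its peak. Since it is read at a single base it is not a sum over the region. Where a library listed several peaks in a region the tallest was kept, so a longer region had more chances of a tall summit. A relative summit height of 1 is the median shared region of the same library. Differences are HADA minus control on the log2 scale of these heights, tested with limma over all shared regions. Over the genome, 18.4% of shared regions were called higher in HADA and 24.5% lower at an adjusted p under 0.05. Near the starts of protein-coding genes the shares were 21.4% higher and 9.88% lower. The median difference was -0.04 over all shared regions and 0.11 near protein-coding starts. It also varied with height, from -0.79 in the lowest eighth of regions through 0.23 in the fourth, which holds the Bmal1 and Per2 introns, to -0.14 in the highest, which holds 7 of the 14 clock regions. In that highest eighth 9.06% of regions were called higher and 12.9% lower, and in the fourth 28.8% and 24.7%. The libraries listed 34045 to 45799 peaks on the main chromosomes, with the fewest in control 3. The background pileup of a library was taken as the most common local background solved at its listed peaks, since no signal outside peaks was read. It ranged from 1.69 to 2.05 in the control libraries and from 1.99 to 2.34 in the HADA ones. A second measure, the fold of the summit over its local background as deposited, was ranked within each library. On that scale 7.65% of shared regions were called higher and 5.83% lower.

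In these cells the promoters of all 10 clock genes were open in every library. By summit height the Bmal1, Dbp and Per3 promoters were called taller in HADA, and none was called shorter. On the ranked fold none of these 3 was called, and the Per2 promoter alone was called higher. Inside the genes, an intron region of Bmal1 was also taller, while an intron region of Per2 was shorter. In all, 4 of the 14 shared regions were called higher (28.6%) and 1 lower (7.14%), beside 18.4% and 24.5% over the genome, and without HADA 2 the count higher was 2. Of the 10 promoters, 3 were called higher (30.0%), beside 21.4% of regions near protein-coding starts. These shares are close enough to the background that nothing about the genes as a list is read from them. The median difference was 0.26 over the 14 regions and 0.29 over the 10 promoters.

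**Figure D1:**
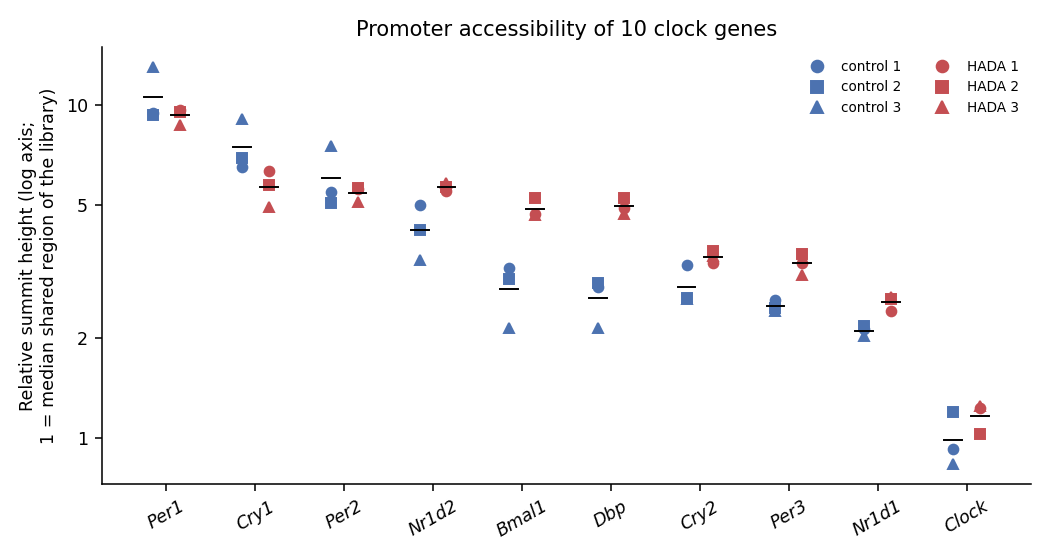
Relative summit height, on a log axis, of the promoter region of each clock gene in 6 libraries, with black bars for group means and genes ordered by their mean over the libraries. Per1 was tallest, at 8.67 to 12.9, and Clock lowest, at 0.837 to 1.25. The HADA points lie above all control points at 6 promoters and below them at Cry1.

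By relative height the promoters fell in the order Per1 (mean 9.92 over the 6 libraries), Cry1 (6.57), Per2 (5.72), Nr1d2 (4.93), Bmal1 (3.83), Dbp (3.79), Cry2 (3.17), Per3 (2.91), Nr1d1 (2.33) and Clock (1.08). Per1 stood above Cry1, and Nr1d2 above Bmal1, in all 6 libraries. Cry1 stood above Per2 in 5 libraries and Per2 above Nr1d2 in 4. Bmal1 stood above Dbp in 2, Dbp above Cry2 in 4 and Cry2 above Per3 in 5. The order within these last 5 pairs thus changed between libraries. The lower end was well ordered, with Per3 above Nr1d1 and Nr1d1 above Clock in all 6. That order pools the groups. In control alone Cry2, with a mean of 2.85, came before Bmal1 (2.79) and Dbp (2.63). In HADA alone Nr1d2 and Cry1 were level at 5.66, and Dbp (4.95) and Bmal1 (4.87) came before Cry2 (3.50).

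Bmal1 (also Arntl) encodes the partner without which the loop does not run. Its promoter region, chr7:112806112-112807327 in GRCm39, had its summit in an annotated exon, 24 bases before the nearest annotated start. Relative heights were 3.24, 3.00 and 2.14 in control 1 to 3 and 4.70, 5.25 and 4.65 in HADA 1 to 3. Every HADA library stood above every control library, and control 3 was the lowest of the 6. The means were 2.79 ± 0.577 and 4.87 ± 0.331 (SD, n = 3 each), a log2 difference of 0.82 (SE 0.18, 95% interval 0.42 to 1.22, limma adjusted p = 0.00917). Without HADA 2 the adjusted p was 0.0505. The fold over local background did not separate the groups, with 12.7, 11.8 and 13.5 in controls and 13.8, 13.5 and 11.8 in HADA. On the rank of that fold the difference was -0.03 (adjusted p = 0.91).

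The second shared region of Bmal1, chr7:112894098-112895114, lay in an intron 88397 bases into the gene. A start of the predicted gene Gm45355 is within 3 kb of it. It held between 14 and 31 fragments at the summit in controls and between 99 and 110 in HADA. Relative heights were 0.534, 0.418 and 0.286 in controls and 1.20, 1.30 and 1.22 in HADA. The difference of 1.63 (SE 0.25, 95% interval 1.06 to 2.20, adjusted p = 0.00628) was the largest rise among the 14 regions, and the ranked fold rose too, by 1.14 (adjusted p = 0.0352). Its folds were 9.73, 6.89 and 5.30 in controls and 14.5, 12.8 and 11.9 in HADA. The sequence around this summit is shown because it is the clock gene region that rose most, and none of the motifs searched occurs in it. It is the plus strand of GRCm39, chr7:112894399-112894650:
Bmal1 intron: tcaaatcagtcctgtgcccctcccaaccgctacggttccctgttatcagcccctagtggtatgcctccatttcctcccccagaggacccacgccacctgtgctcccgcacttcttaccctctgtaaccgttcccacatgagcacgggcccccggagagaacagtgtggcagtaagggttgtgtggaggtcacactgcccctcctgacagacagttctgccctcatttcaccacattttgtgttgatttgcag

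Other Bmal1 regions were listed in some libraries. One at chr7:112840906-112841975, 35193 bases into the gene, had 24 and 14 fragments in control 1 and 2, no listed peak in control 3, and 56, 67 and 59 in HADA. Another at chr7:112867593-112868663 had 10 fragments in control 1, none listed in the other controls, and 28, 27 and 36 in HADA. In both, the HADA libraries were taller than any control library that listed the peak. The remaining 3 Bmal1 regions were each listed in 1 library.

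Clock encodes the second activator. Its single region, the promoter chr5:76451579-76452934, was the smallest of the 10 promoters. Relative heights were 0.931, 1.20 and 0.837 in controls and 1.23, 1.03 and 1.25 in HADA. The groups overlapped, and the difference of 0.25 (SE 0.20, 95% interval -0.20 to 0.69) was not called (adjusted p = 0.324). It was 0.14 without control 3 and 0.40 without control 2.

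**Figure D2:**
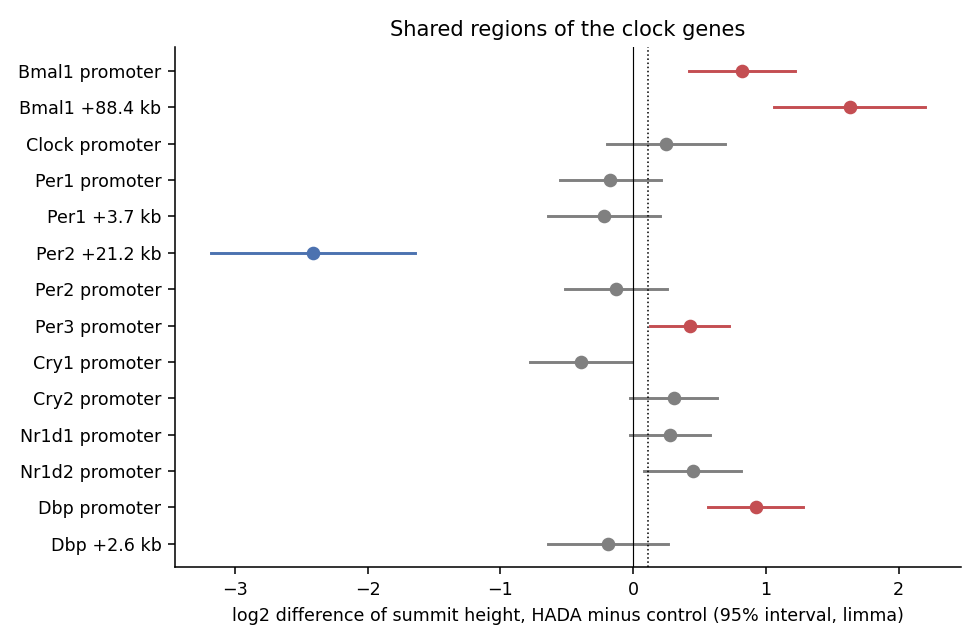
Log2 difference in summit height, HADA minus control, for the 14 shared regions of the clock genes, with 95% intervals from limma. Red marks regions called higher and blue the region called lower, the dotted line is the median near protein-coding starts (0.11), and labels in kb give the distance from the 5′ end of the gene. The Bmal1 intron (1.63) and the Per2 intron (-2.41) are the extremes.

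The PER genes encode the rhythmic subunits of the repressor. Per1 had the tallest promoter of all, chr11:68985391-68986656, taller than 99.5% of shared regions. Relative heights were 9.41, 9.33 and 12.9 in controls and 9.65, 9.51 and 8.67 in HADA. Only control 3 stood above the rest, and the difference was -0.17 (SE 0.17, adjusted p = 0.432), with the sign turned on background-scaled heights (0.21), ranked folds (0.28) and quantile-normalised heights (0.20, adjusted p = 0.0345). The region at the second start of Per1, chr11:68989113-68991162, behaved alike, with 6.19, 5.51 and 8.92 in controls and 6.08, 5.68 and 5.59 in HADA (difference -0.22, adjusted p = 0.362, and above 0 under those 3 scalings). Without control 3 the differences were -0.016 at the promoter and -0.015 at the second start, and at the second start -0.36 without control 2. The 250 bases before the main start of Per1 are shown for their E-box, in capitals, 142 bases before the start (plus strand, chr11:68985785-68986034):
Per1 upstream: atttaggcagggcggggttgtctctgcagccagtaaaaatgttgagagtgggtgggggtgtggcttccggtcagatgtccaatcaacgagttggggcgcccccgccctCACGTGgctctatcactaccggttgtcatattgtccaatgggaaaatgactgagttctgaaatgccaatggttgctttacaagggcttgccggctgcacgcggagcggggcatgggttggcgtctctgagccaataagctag

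Between those regions lay a smaller one, chr11:68987924-68988490. It had relative heights of 3.67, 3.25 and 6.16 in control, 2.50 and 2.46 in HADA 1 and 3, and no listed peak in HADA 2. Its local background was 112, 96.9, 135, 160 and 127 fragments in those libraries, so the summit was only 1.44 to 2.22 times its surroundings. At such a background an unlisted peak does not mean closed chromatin. The 300 bases around its summit hold a cAMP response element, TGACGTCA, which 1.7% of shared regions and 2.67% of those near protein-coding starts hold. At the other end of Per1, 15693 bases into the gene and in an exon, chr11:69001258-69001944 was listed in the 3 HADA libraries alone, with 34, 32 and 24 fragments. It was the sole clock gene region listed in every library of a group and none of the other. Over the genome 7.01% of regions were listed in the 3 HADA libraries alone and 1.88% in the 3 control libraries alone, so 1 of 27 is no excess. The count was 2 without control 1 or without HADA 2.

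Per2 had a shared region at its promoter and another in an intron. The promoter, chr1:91385781-91387696, had relative heights of 5.47, 5.07 and 7.51 in controls and 5.58, 5.61 and 5.10 in HADA. The groups overlapped, and the difference of -0.13 (SE 0.17, adjusted p = 0.564) turned to 0.04 without control 3, and was above 0 on the other 3 scalings. Its fold over local background, on the other hand, was 8.76, 8.50 and 7.29 in controls and 12.4, 13.4 and 12.4 in HADA. The ranked fold rose by 0.82 (adjusted p = 0.0235), the sole promoter of the 10 called on that scale.

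The intron region of Per2, chr1:91365307-91366254, lay 21173 bases into the gene, with a start of the predicted gene Gm70345 within 3 kb. It had 65, 61 and 110 fragments at the summit in controls and 35, 16 and 19 in HADA. Relative heights were 1.12, 1.11 and 2.24 in controls and 0.380, 0.208 and 0.235 in HADA. Every HADA library was below every control library, control 3 being the tallest. The difference of -2.41 (SE 0.34, 95% interval -3.18 to -1.64, adjusted p = 0.00628) was the widest of the 14 regions in either direction. The ranked fold fell by 0.90 (adjusted p = 0.0347). Nearer the promoter, 2800 bases into the gene, chr1:91383847-91384465 was listed in control 2 and 3 only, with 82 and 209 fragments over a local background of 32.6 and 51.0.

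Both Per2 windows are shown, since both were called on the ranked fold, with opposite signs, and on heights the intron alone was. They are on the minus strand, the strand of the gene, at chr1:91387070-91387319 and chr1:91365746-91366045. Capitals mark a D-box in the upstream stretch, 102 bases before the start, and in the intron a match to TTGCNNAA, a form of the C/EBP motif:
Per2 upstream: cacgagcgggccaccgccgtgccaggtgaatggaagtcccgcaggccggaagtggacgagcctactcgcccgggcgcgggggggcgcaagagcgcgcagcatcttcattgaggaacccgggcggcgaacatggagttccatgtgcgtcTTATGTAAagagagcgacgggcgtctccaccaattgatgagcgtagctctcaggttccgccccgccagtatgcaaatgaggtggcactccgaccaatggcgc
Per2 intron: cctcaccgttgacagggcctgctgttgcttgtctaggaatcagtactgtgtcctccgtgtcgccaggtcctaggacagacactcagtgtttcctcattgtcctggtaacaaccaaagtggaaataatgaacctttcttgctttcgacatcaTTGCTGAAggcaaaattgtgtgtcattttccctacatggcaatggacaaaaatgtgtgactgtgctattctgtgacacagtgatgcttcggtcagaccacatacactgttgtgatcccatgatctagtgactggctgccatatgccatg

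**Figure D3:**
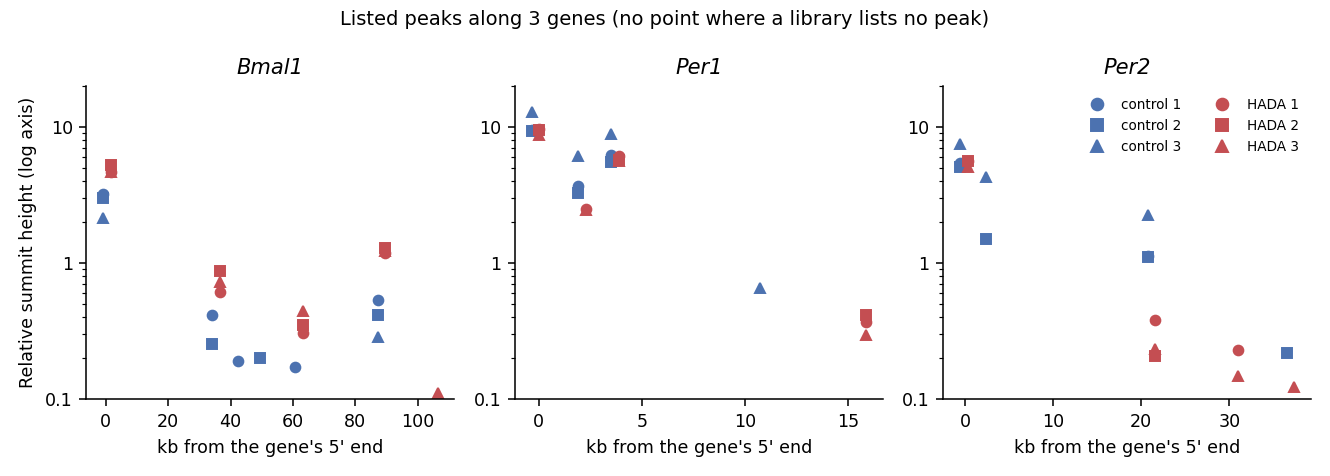
Relative summit height, on a log axis, of the listed peaks along Bmal1, Per1 and Per2, against the distance in kb from the 5′ end of each gene. A library without a point lists no peak there. In the Per2 intron at 21173 bases the HADA points (0.208 to 0.380) lie below the control points (1.11 to 2.24), and in the Bmal1 intron at 88397 bases they lie above.

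Per3, a PER paralogue whose loss leaves the loop largely running, had a promoter that rose. That region, chr4:151128649-151129768, measured 2.59, 2.45 and 2.41 in controls and 3.36, 3.57 and 3.09 in HADA. Every HADA library was above every control library. The means were 2.48 ± 0.0924 and 3.34 ± 0.243 (SD, n = 3 each), and the difference of 0.43 (SE 0.13, 95% interval 0.13 to 0.73) was called, with an adjusted p of 0.0305. The call was lost without any of the HADA libraries (adjusted p = 0.0753 to 0.147) and on the ranked fold (0.28, adjusted p = 0.119). It was also lost without the trend of variance on height (adjusted p = 0.0598) and with the replicate block (adjusted p = 0.0894), while on background-scaled heights the difference was 0.80 (adjusted p = 0.00581). The upstream stretch of Per3 is shown for its pair of D-boxes, 187 and 140 bases before the start (minus strand, chr4:151129141-151129390):
Per3 upstream: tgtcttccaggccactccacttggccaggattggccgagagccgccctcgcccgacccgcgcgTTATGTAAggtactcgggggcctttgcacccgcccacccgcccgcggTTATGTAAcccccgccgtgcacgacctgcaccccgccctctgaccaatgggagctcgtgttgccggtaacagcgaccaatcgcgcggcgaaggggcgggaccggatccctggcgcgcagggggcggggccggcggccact

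The CRY genes encode the stronger repressors, related to photolyases but without repair activity. Cry1 had the promoter with the lowest difference of the 10, chr10:85020120-85021569. It measured 6.50, 6.89 and 9.02 in controls and 6.33, 5.73 and 4.93 in HADA. All HADA values were below all control values, but the difference of -0.39 (SE 0.17, 95% interval -0.78 to -0.01) was not called (adjusted p = 0.0901) and was -0.25 without control 3 and -0.01 on background-scaled heights. Cry2, at chr2:92263975-92265002, lay the other way, with 3.29, 2.64 and 2.61 in controls and 3.35, 3.64 and 3.51 in HADA. Its difference of 0.30 (SE 0.15, adjusted p = 0.115) was not called, though it passed without control 1 (0.41, adjusted p = 0.0473) and on background-scaled heights (0.68, adjusted p = 0.0176). The upstream stretch of Cry2 is shown for its E-box-like element, 106 bases before the start, as an example from the repressor arm (minus strand, chr2:92264475-92264724):
Cry2 upstream: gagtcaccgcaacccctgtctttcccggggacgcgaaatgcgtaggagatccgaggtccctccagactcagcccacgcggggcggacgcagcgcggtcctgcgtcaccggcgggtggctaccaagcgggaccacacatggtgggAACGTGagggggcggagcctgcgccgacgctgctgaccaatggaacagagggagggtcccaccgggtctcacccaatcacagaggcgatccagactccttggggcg

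Nr1d1 and Nr1d2 are nuclear receptors that bind heme and repress Bmal1. The tallest summit of Nr1d1 lay in an intron, 1434 bases into the gene, within chr11:98664466-98666730. Heights were 2.12, 2.16 and 2.02 in controls and 2.40, 2.61 and 2.64 in HADA. They did not overlap, but the difference of 0.28 (SE 0.13, adjusted p = 0.115) was not called. It was called on background-scaled heights (0.66, adjusted p = 0.0294) and turned to -0.12 on the ranked fold. Nr1d2, at chr14:4230208-4231543, measured 5.0, 4.20 and 3.41 in controls and 5.51, 5.68 and 5.80 in HADA. Here too the groups did not overlap. The difference of 0.45 (SE 0.16, 95% interval 0.08 to 0.81) had an adjusted p of 0.0506, it was called without control 1 (0.58, adjusted p = 0.0231) or control 3 (0.31, adjusted p = 0.0399). It was also called on background-scaled heights (0.83, adjusted p = 0.00222) and after quantile normalization (0.61, adjusted p = 0.0293), and it was -0.13 on the ranked fold. The Nr1d1 summit is shown because it holds 2 E-boxes close together (minus strand, chr11:98664604-98664903):
Nr1d1 intron: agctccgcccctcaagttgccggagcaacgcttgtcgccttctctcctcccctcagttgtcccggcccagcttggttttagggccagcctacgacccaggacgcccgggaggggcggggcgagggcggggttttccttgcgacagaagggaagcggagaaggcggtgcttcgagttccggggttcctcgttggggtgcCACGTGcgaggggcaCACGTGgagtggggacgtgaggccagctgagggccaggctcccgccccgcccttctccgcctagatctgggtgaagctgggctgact

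Dbp encodes a PAR-bZIP factor that switches on D-box genes. Its promoter, chr7:45353616-45354961, whose summit lay 161 bases before the start and which also overlaps Car11, measured 2.84, 2.91 and 2.14 in controls and 4.88, 5.26 and 4.70 in HADA. Every HADA library was above every control library, with control 3 lowest, as at Bmal1. The means were 2.63 ± 0.425 and 4.95 ± 0.284 (SD, n = 3 each). The difference of 0.92 (SE 0.16, 95% interval 0.57 to 1.28, adjusted p = 0.00629) was the widest of the 10 promoters. Folds were 6.26, 7.21 and 5.47 in controls and 8.54, 8.80 and 8.20 in HADA, and the ranked fold rose by 0.49 without passing the test (adjusted p = 0.104). The second region of Dbp, chr7:45356209-45357771 near an alternative start, measured 1.60, 1.22 and 1.96 in controls and 1.5, 1.26 and 1.37 in HADA, with a difference of -0.19 (adjusted p = 0.466), which was -0.025 without control 3, -0.37 without control 2 and -0.13 without HADA 2. Its ranked fold differed by -1.16 (adjusted p = 0.0528), with folds of 3.59, 3.10 and 5.13 in control libraries and 2.68, 2.17 and 2.44 in HADA libraries. The Dbp upstream stretch is shown because the promoter rose most and carries, in capitals, a ROR element 193 bases before the start (plus strand, chr7:45354262-45354511):
Dbp upstream: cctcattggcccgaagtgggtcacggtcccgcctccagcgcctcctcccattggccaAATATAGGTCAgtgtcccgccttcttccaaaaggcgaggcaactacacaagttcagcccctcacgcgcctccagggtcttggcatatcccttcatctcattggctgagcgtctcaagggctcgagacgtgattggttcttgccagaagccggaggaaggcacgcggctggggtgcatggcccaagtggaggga

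Motifs were searched on both strands in the 300 bases around each summit. The E-box CACGTG occurred in 6 of the 14 shared clock regions and in 6.92% of all shared regions, or 8.87% of those near protein-coding starts, where all the clock regions but the 2 introns lie. The 6 were the Per1 promoter and its second region, Cry1, Nr1d1 with 2, Nr1d2 and the internal region of Dbp, also with 2. The E-box-like element CACGTT was in 3 of 14, beside 4.79% of all and 5.48% near starts. D-boxes, TTATGTAA or TTACGTAA, were in the Per2 and Per3 promoters, 2 of 14 beside 0.747% and 0.488%. The ROR element was in the Dbp promoter alone, 1 of 14 beside 0.242% and 0.143%. The windows of the shared Bmal1 regions held none of these, but they do not cover the whole of either region. Of the leukocyte motifs, PU.1 (GAGGAAGT), RUNX (TGTGGTT) and AP-1 (TGANTCA) were in none of the 14 windows, beside 6.94%, 8.46% and 7.30% of all shared regions and 4.44%, 4.54% and 4.71% of those near starts. TTGCNNAA was in 2, beside 10.8% and 7.01%. These are matches of letters, not sites of binding. The 50 bases at the summit occurred once in the genome for 26 of the 27 regions.

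Set by arm, the mean log2 height of the Bmal1 and Clock promoters was 0.71 ± 0.26 in controls and 1.25 ± 0.03 in HADA (SD over 3 libraries each), a difference of 0.53. The PER and CRY promoters were at 2.33 ± 0.14 and 2.34 ± 0.08, a difference of 0.01. The REV-ERB promoters differed by 0.36, from 1.56 ± 0.16 to 1.93 ± 0.06, and Dbp by 0.92. The gap between activators and PER and CRY was -1.50, -1.28 and -2.06 in controls and -1.12, -1.18 and -0.97 in HADA. It was narrower in every HADA library than in any control library, by 0.53 in the means, on heights, and by 0.30 without control 3. On the ranked fold it moved the other way, by -0.28. Most of the rise of the activator arm came from Bmal1, at 0.82 beside 0.25 for Clock. Within the PER and CRY arm the members lay on both sides of 0, from -0.39 at Cry1 to 0.43 at Per3. No test was run on the arms, whose members were chosen with results of these data known.

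**Figure D4:**
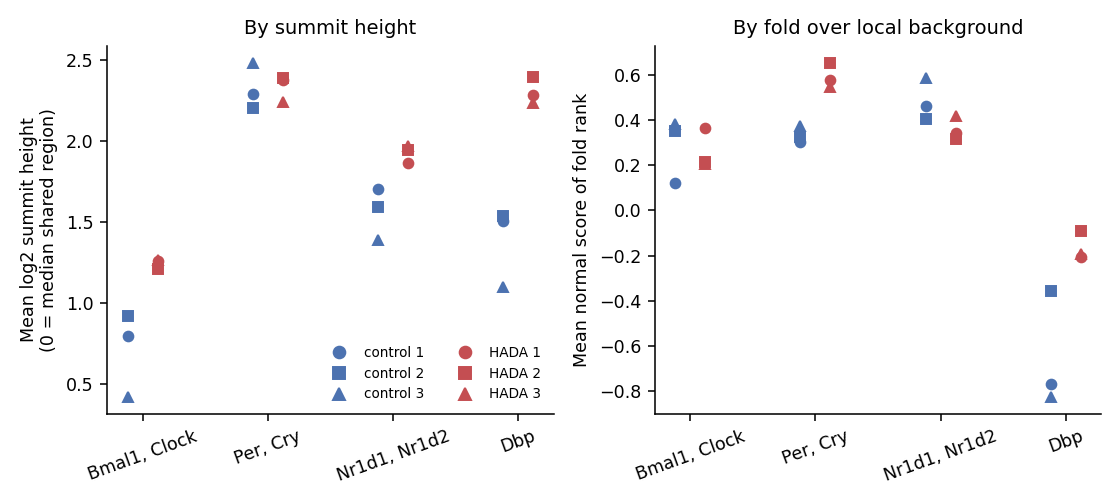
Mean of the promoters in each arm of the clock, by library, as log2 summit height centred on the library's median shared region (left) and as normal score of the fold rank (right). On the left, Bmal1 and Clock differed by 0.53, PER and CRY by 0.01, the REV-ERB genes by 0.36 and Dbp by 0.92 between the group means, and on the right the activators differed by -0.02 and PER and CRY by 0.26. These are descriptions without a test.

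Groups did not overlap in 9 of the 14 shared regions. HADA stood above control in 7 (50%) and below in 2 (14.3%), while the shares over the genome were 29.3% and 31.2%. The number of peaks at the 10 genes was 21, 21 and 20 in controls and 22, 19 and 23 in HADA. The means of 20.7 ± 0.577 and 21.3 ± 2.08 (SD, n = 3 each) did not differ beyond their spread (two-sided exact permutation p = 0.8, with 0.1 the smallest that 3 against 3 allows). Per 10000 listed peaks the direction turned, with 5.06, 5.10 and 5.87 in control libraries and 4.95, 4.31 and 5.02 in HADA libraries, which did not overlap (exact permutation p = 0.1).

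The wider clock was read from 19 further genes, which had 24 shared regions. Of these, 3 were called higher (12.5%) and 5 lower (20.8%), beside 18.4% and 24.5% over the genome, with a median difference of 0.01. Without HADA 1, 2 or 3 in turn the higher count was 1, 0 and 1, while over the genome it fell from 4417 to 2272, 1294 and 1849. The lower count was 3 without HADA 2 and 2 without HADA 3, and over the genome it went from 5862 to 2813 and 3924. Of all 57 regions of these genes, 6 were listed in the 3 HADA libraries alone, of which 3 were in Rora and 1 each in Btrc, Fbxw11 and Usp2, and 1, at Nfil3, in the 3 control libraries alone, beside 7.01% and 1.88% of regions over the genome. Nfil3, a repressor that competes with DBP at D-boxes, fell at its promoter, from 3.86, 3.38 and 6.12 to 1.95, 1.60 and 1.65 in relative height. The difference was -1.32 (SE 0.22, adjusted p = 0.00629), but -0.13 on the ranked fold (adjusted p = 0.645). The Nfil3 region listed in control alone had 96, 75 and 141 fragments. An intron region of Usp2, a deubiquitinase, fell by 1.48 on the log2 scale (SE 0.28, adjusted p = 0.00713), and its ranked fold fell by 1.43 (adjusted p = 0.0247). The other Usp2 regions did not follow: the promoter difference was 0.09 (adjusted p = 0.631), another shared region was at -0.07 (adjusted p = 0.813), and the Usp2 region listed in HADA alone had 50, 44 and 49 fragments.

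The remaining calls were at genes of PER and CRY turnover and at Bmal2. Bmal2, a paralogue of Bmal1, fell by 1.37 (SE 0.34, adjusted p = 0.0137) from 19 to 35 fragments in control to 11 to 18 in HADA, and was not called on the ranked fold (adjusted p = 0.0626) or after quantile normalization (adjusted p = 0.106). It lies in the lowest eighth of heights, where 39.9% of regions were called lower. The casein kinase genes that mark PER for degradation both had a lower region, by 0.71 at the Csnk1d promoter (adjusted p = 0.0294) and by 0.83 in a Csnk1e intron (adjusted p = 0.0365). Neither call held on background-scaled heights (-0.33, adjusted p = 0.262, and -0.45, adjusted p = 0.243) or on the ranked fold (-0.37, adjusted p = 0.14, and, with the sign turned, 0.06, adjusted p = 0.857), and that of Csnk1e was also lost after quantile normalization (adjusted p = 0.197). The Csnk1e intron lies in the second eighth of heights, where 34.4% were called lower. At Csnk1e the promoter difference was 0.16 (adjusted p = 0.547) and that of its other shared region -0.29 (adjusted p = 0.377). Btrc, part of the ubiquitin ligase that removes PER, was higher at its promoter by 0.42 (adjusted p = 0.0328) and at an internal region by 1.39 (adjusted p = 0.0135). On the ranked fold the promoter was still called (adjusted p = 0.0388) and the internal region was not (adjusted p = 0.148). Fbxl21, of the CRY ligase family, was higher by 0.69 (adjusted p = 0.0367), though not on the ranked fold (adjusted p = 0.0825). Rorb, which encodes a ROR activator, had no peak in any library.

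Markers of blood cell types moved with the groups. Summed relative promoter heights of 10 B cell genes were 7.48, 6.11 and 1.06 in controls and 16.5, 17.7 and 16.9 in HADA, and control 3 listed 4 of the 10 where the others listed all. Those of 10 neutrophil genes ran the other way, at 8.29, 7.31 and 17.9 in controls and 4.04, 3.16 and 2.53 in HADA, with no promoter peak at Ngp or Camp in any library. Monocyte genes summed to 9.55 to 10.8 in controls and 6.79 to 6.95 in HADA. T cell genes summed to 9.60 to 11.8 and 12.6 to 12.8, without a promoter peak at Cd8a, and NK genes overlapped at 1.04 to 2.24 and 2.01 to 3.15, without a promoter peak at Klrk1. The leukocyte genes Ptprc, Coro1a and Laptm5 had a promoter peak in all 6 libraries. Their sums were 13.5, 11.2 and 18.2 in controls and 12.1, 11.0 and 10.9 in HADA. The groups overlapped, and control 3 had the highest sum here too, as for the neutrophil genes.

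The Bmal1 and Dbp promoters were lowest in control 3, the library with the lowest B cell and the highest neutrophil sum. The Per2 intron and Nfil3 were tallest in that same library. Without control 3 the differences were still in the same direction, at 0.64 for the Bmal1 promoter, 0.78 for Dbp and -2.07 for the Per2 intron. The part of cell composition in these results was not tested.

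**Figure D5:**
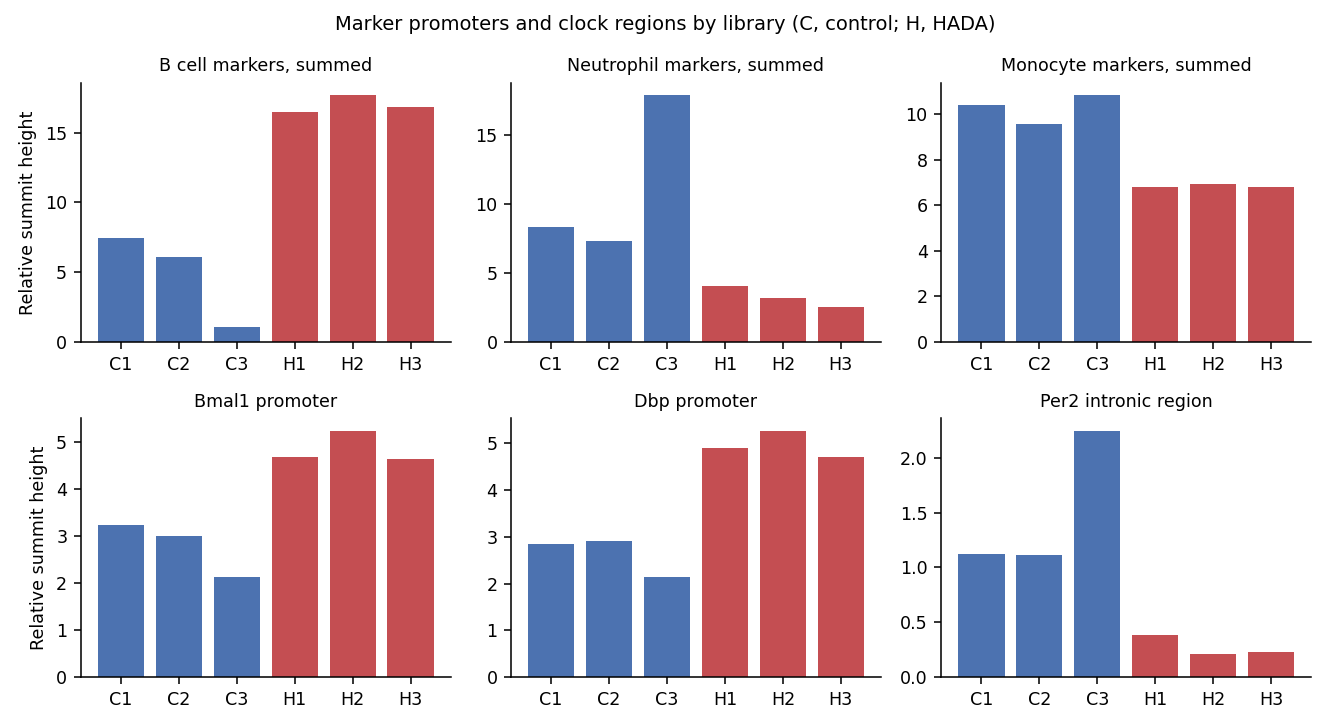
Summed relative promoter heights of B cell, neutrophil and monocyte markers (top) and relative summit heights of the Bmal1 promoter, the Dbp promoter and the Per2 intron region (bottom) in the same 6 libraries. Control 3 has the lowest B cell sum (1.06), the highest neutrophil sum (17.9), the lowest Bmal1 promoter (2.14) and the tallest Per2 intron (2.24).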

How the data were processed

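ATAC-seq had been run on blood leukocytes by the authors, who used Trimmomatic for trimming, Bowtie2 for alignment to GRCm39, Picard against duplicates and MACS2 to call peaks in each library on its own. Options and versions are not given in the sources used here. The deposited peak lists hold for each peak a score, the summit's offset, its fold ratio over local background, and the p-value and q-value of that fold, each as -log10, and every listed q-value was at most 0.0498. No fragment totals are given, so sequencing depth is known only through the pileup.

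Here the summit pileup was solved from the deposited fold and -log10 p, assuming a Poisson tail, for all peaks. Peaks of the 21 main chromosomes that overlapped by 1 bp or more were merged into regions. The log2 pileup of regions listed in all 6 libraries was centred on each library's median and tested with limma 3.58.1 in R 4.3.3 (trend, two-sided, Benjamini-Hochberg over 23970 regions, threshold 0.05). The scripts were tested on simulated data. Ranked folds were normal scores. A promoter was the region with the tallest summit within 3 kb of a start. Sequences were read from the GRCm39 genome, and only stretches free of annotated exons of the same gene are printed. The Bmal1 intron window was cut for this, and exons of other genes were not checked. Named were all member promoters, other member regions called, listed in 1 group alone or tallest, and up to 6 other clock genes with a call by smallest p, with those lacking a peak, of which 1 is not reported here; Fbxl21, Rora, Fbxw11 and the other listed regions of Bmal1, Per1, Per2, Nfil3, Usp2 and Csnk1e were added after their values were seen. The genes and lists were chosen with earlier results of these data known. Replicate numbers did not pair the libraries (r of -0.08, 0.08 and -0.38 for same-numbered libraries).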

Additional observations from a re-analysis of the deposited data

How the results depend on the processing

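The Bmal1 intron, Dbp promoter and Per2 intron kept their direction under every alternative that could be computed, and the Bmal1 promoter did except on the ranked fold. The count of shared regions called higher in HADA was 7769 after division by the background pileup, which moves the median difference of all regions to 0.34, and 1834 on the ranked fold, and without 1 library it ranged from 1294 to 4936 (2272, 1294 and 1849 without HADA 1, 2 and 3). The count called lower was 1398 on the ranked fold, 3582 with peaks of -log10 q of at least 10, and 2813 to 5910 without 1 library (3808 and 2813 without HADA 1 and 2). Of the clock gene regions, 7 were higher after division by background, 2 on the ranked fold and 2 to 6 without 1 library (2 without HADA 2), and 1 was lower throughout except for 0 at the stricter q, where 11 regions were left. Among the further clock genes, the higher and lower counts were 5 and 3 after division by background and 1 and 1 on the ranked fold, 1 was higher at the stricter q, 3 were lower after quantile normalization, which was chosen after seeing the data, and without 1 library the counts ran from 0 to 4 and from 2 to 5. With the replicate number as a block, 3330 shared regions were higher and 5757 lower, the clock genes had 3 and 1 calls, with Per3 lost (adjusted p = 0.0894), and the further genes had 1 higher call.

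Single differences that turned sign did so on the ranked fold at the Bmal1 (-0.025), Clock (-0.021), Per1 (0.28), Per1 second (0.37), Per2 (0.82), Nr1d1 (-0.12) and Nr1d2 (-0.13) regions. After division by background they were 0.21 and 0.16 at the Per1 regions, 0.25 at the Per2 promoter and 0.19 at the internal Dbp region, and after quantile normalization 0.20, 0.025 and 0.092 at the Per1 regions and the Per2 promoter. The Per2 promoter ranged from -0.24 to 0.043 without 1 library. The difference in peaks at the clock genes was -0.581 per 10000 peaks (exact permutation p = 0.1) and -0.167 (without HADA 3) to 1.83 without 1 library. Arm differences after division by background were 0.91 (activators), 0.39 (PER and CRY), 0.74 (REV-ERB) and 1.30 (Dbp), and on the ranked fold -0.023, 0.26, -0.12 and 0.49, with gaps of -0.28 to PER and CRY and -0.17 to all repressors. Without 1 library they spanned 0.39 to 0.64, -0.05 to 0.09, 0.28 to 0.43 and 0.78 to 1.00, and the gaps 0.30 to 0.69 and 0.25 to 0.57, each gap lowest without control 3. Regions listed only in HADA were 0 when summits within 250 bp were chained and 1 to 2 without 1 library, and regions listed only in control were 1 at the stricter q and 0 to 1 without 1 library (1 without control 1). Starts within 1 kb changed no count. The causes were not tested. With 3 libraries a group, small differences could not be resolved.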
